A study of Mus musculus with 10 samples.

Results

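Txnip and the 5 genes of the thioredoxin system (Txn1, Txn2, Txnrd1, Txnrd2 and Txnrd3) were examined for binding of AHR, the aryl hydrocarbon receptor, which enters the nucleus and acts on genes once a ligand has bound it. Members were the peaks that overlapped a gene body or the 10 kb on either side of it, 20 of the 123652 peaks of the wild type list and 0 of the 1931 peaks of the AHR knockout (AHR KO) list. The genes were selected from the scores of this same list, because Txnip and Txn2 hold 2 of its strongest sites, so position and score describe these members and were not tested. The data come from chromatin immunoprecipitation with sequencing (ChIP-seq), in which an antibody against AHR recovers the DNA that the protein sits on. The groups were 4 AHR ChIP and 4 input libraries (sheared chromatin without antibody) from wild type mouse colon organoids, and 1 ChIP and 1 input library from AHR KO organoids. All organoids, which are epithelial cultures of stem cell origin, were in WENR medium (a stem cell condition) and were exposed for 1 hour to FICZ, a ligand of AHR, at 5 nM, so no group was free of ligand. The study's methods give 4 biological replicates for both genotypes, while the labels give 1 AHR KO library and do not say how many cultures it holds. Wild type cultures share a single list, so no value here has a replicate error, and neither list holds RNA by which the tissue label could be checked.

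Thioredoxins are small proteins that reduce disulphide bonds in other proteins. Thioredoxin reductases recharge them with electrons from NADPH, and TXNIP, a member of the alpha-arrestin family, binds reduced thioredoxin and restrains it. Txn1 and Txnrd1 encode the cytosolic thioredoxin and reductase, Txn2 and Txnrd2 the mitochondrial pair, and Txnrd3 a reductase best known from testis that also carries a glutaredoxin domain. Txnip is also known as a glucose-induced gene that lowers glucose uptake. AHR and its partner ARNT recognise the 5 letters GCGTG, called the core here, most readily within the longer word TNGCGTG, where N is any base.

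Sequences of the pair of strongest sites, and of the site with the most copies of the core, are shown first because the core and the repeat around it are what these sites have in common. Each is the plus strand of GRCm38 over the 200 bp around the peak midpoint, 5′ to 3′, with GCGTG on either strand (CACGC when it lies on the other strand) in capitals. In every sequence printed here the other letters are in lower case, whether or not the genome marks them as repeat. The third was picked after its count of cores was seen. They lie at chr15:77919356-77919555 in an intron of Txn2, at chr3:96555238-96555437 upstream of Txnip and at chr10:82862774-82862973 in an intron of Txnrd1.
Txn2: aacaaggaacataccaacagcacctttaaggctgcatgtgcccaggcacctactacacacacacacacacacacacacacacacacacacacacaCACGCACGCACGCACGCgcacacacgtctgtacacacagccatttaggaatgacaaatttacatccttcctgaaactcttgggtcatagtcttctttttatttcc
Txnip: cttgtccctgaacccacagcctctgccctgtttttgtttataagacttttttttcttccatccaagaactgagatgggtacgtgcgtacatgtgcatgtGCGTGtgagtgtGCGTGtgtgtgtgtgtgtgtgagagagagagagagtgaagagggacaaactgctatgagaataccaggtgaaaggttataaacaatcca
Txnrd1: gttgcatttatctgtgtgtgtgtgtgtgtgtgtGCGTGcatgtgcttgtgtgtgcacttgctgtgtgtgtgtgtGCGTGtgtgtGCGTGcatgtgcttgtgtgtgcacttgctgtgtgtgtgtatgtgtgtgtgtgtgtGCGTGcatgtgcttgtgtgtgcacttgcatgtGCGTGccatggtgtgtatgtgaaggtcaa

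The score of a peak, as deposited by the authors, is the fold enrichment of the ChIP pileup over background, and its median over all wild type peaks was 5.32. All 6 genes had a wild type peak, which was also true of 78.3% of the 21938 protein-coding genes. A peak touched the gene body itself in 5 of the 6 genes (49.7% of all protein-coding genes), Txnip being the exception. In order of the best score, Txn2 came first with 45.9, followed by Txnip with 32.8, Txnrd1 with 8.22, Txn1 with 7.77, Txnrd3 with 5.65 and Txnrd2 with 4.20. Whether neighbours in that order differ beyond culture-to-culture spread cannot be said from a shared list. Best scores in the top 10% of the list were found at 4 of the 6 genes, against 23% of protein-coding genes, and in the top 1% at 2 genes, against 3.72%. Counted by peak, 14 of the 20 scored at or above the list median (50.9% of all wild type peaks), 5 were in the top 10% (10%) and 2 in the top 1% (1.02%). Since the best Txnip and Txn2 peaks were the reason for choosing the set, nothing is read from these shares.

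**Figure D1:**
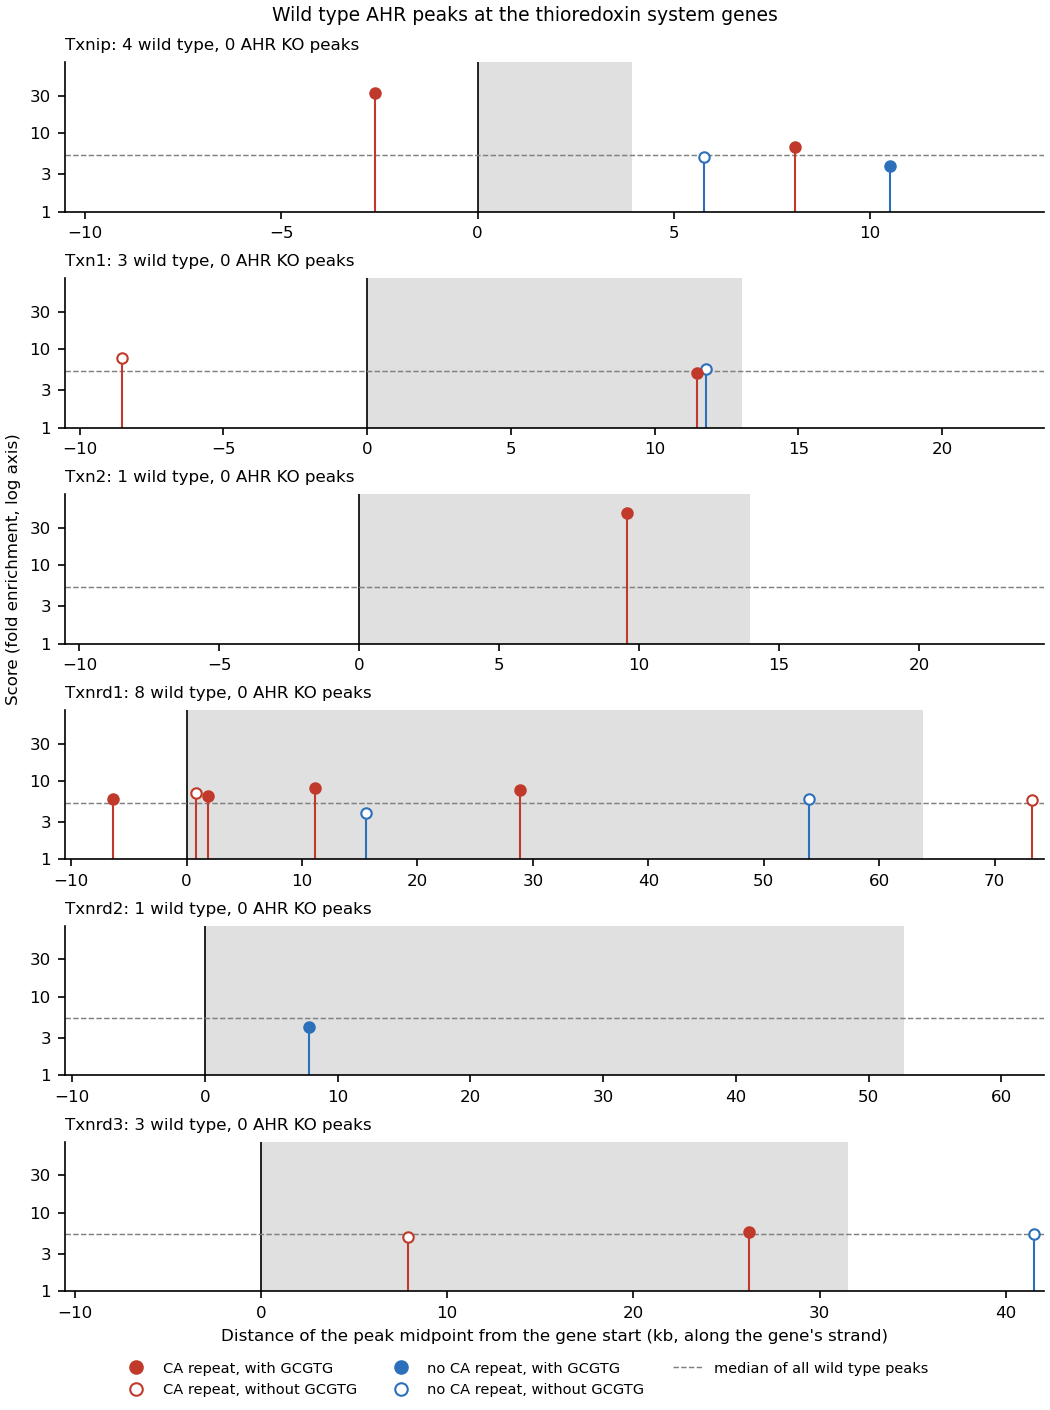
Each of the 6 panels shows a gene, with the distance of each wild type peak midpoint from the gene start in kb along the gene's strand (x axis), the peak score on a log axis (y axis) and the gene body in grey. The Txnip peak of 32.8 stands upstream of its gene and the Txn2 peak of 45.9 inside its gene, while the 18 other peaks lie between 3.81 and 8.22, near the dashed median of all wild type peaks.

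Txn2 encodes mitochondrial thioredoxin and lies on the minus strand at chr15:77915047-77929006 (ENSMUSG00000005354.16). It had a single wild type peak in a window of 33.96 kb, and that peak was the third highest of the whole list. The peak, chr15:77919217-77919695, was 479 bp wide, lay in an intron 9550 bp inside the gene from its start, and was 3756 bp upstream of the nearest start of a shorter annotated transcript. Its score of 45.9 fell on the whole-number steps that scores take over the genome-wide background, which gives a pileup of 137 fragments. As the sequence above shows, a CA run of 44 bp passes directly into 4 overlapping copies of the core. The window was 47.5% soft-masked, that is, marked as repeat by lower-case letters in the genome sequence, whose case is not kept above.

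Txnip lies on the plus strand at chr3:96557957-96561883 (ENSMUSG00000038393.14) and had 4 wild type peaks, none of which touched the gene body. The strongest, chr3:96555151-96555525, lay 2619 bp upstream of the start in intergenic sequence and ranked 9 with a score of 32.8. Its score was off the genome-wide steps. Since the caller divides by the larger of the local and genome-wide backgrounds, its pileup was at least 97.8 fragments. The window held 2 copies of the core within a TG stretch whose longest unbroken run was 19 bp, and was 49% soft-masked. The other 3 peaks lay past the end of the gene. At 5765 bp and 8098 bp from the start, chr3:96563632-96563811 (score 4.98) and chr3:96565947-96566162 (score 6.65) were in introns of Gm15441, annotated as antisense. The first held no core and was 78% masked, and the second held 1 core, a copy of CACGAG and a CA run of 48 bp. The last, chr3:96568382-96568574, was intergenic at 10521 bp with a score of 3.81, the lowest of the 20, and was 100% masked with 1 core and no CA repeat.

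In the list of all scores, the peaks next to these were no members. The peak above that of Txn2 was nearest to the start of Ankrd9 with a score of 53.9. The one below that of Txn2 was in Me2 with 35.9, and the differences were 8.06 and 9.97. The Txn2 site was chosen for its score, so these gaps describe its rank and were not tested. The peak above that of Txnip was in Gsdme with 33.6 and the one below was nearest to Hoxb8 with 32.2, differences of 0.741 and 0.588. Of these 4 neighbours, those at Ankrd9, Me2 and Hoxb8 were CA repeats that held 2 or 3 copies of the core, and the Gsdme peak was neither a CA repeat nor held the core. None overlapped an AHR KO peak.

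**Figure D2:**
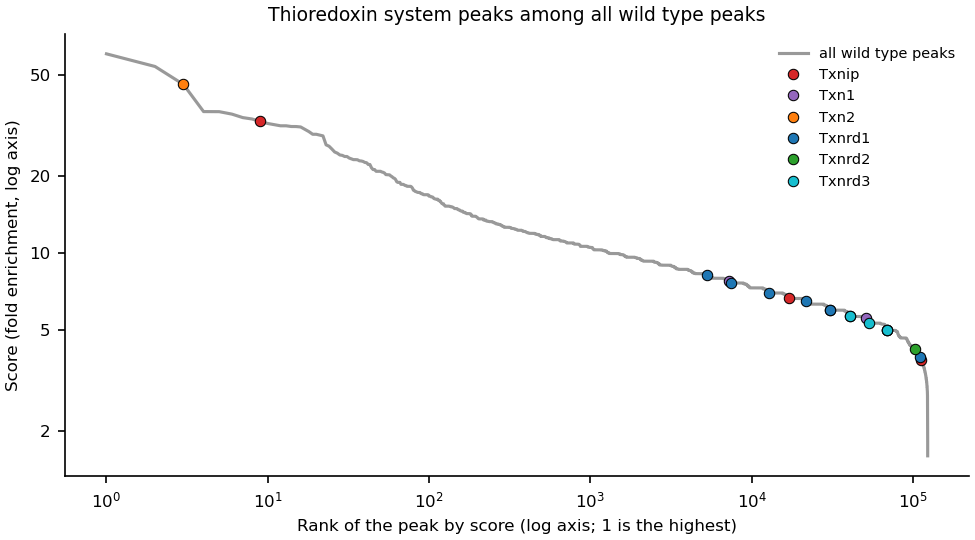
The score of every wild type peak (y axis, fold enrichment, log axis) is plotted against its rank (x axis, log axis) as a grey line, with the 20 thioredoxin system peaks coloured by gene. Txn2 and Txnip sit at ranks 3 and 9, and the next member, a Txnrd1 peak, follows at rank 5256.

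Txn1, which encodes cytosolic thioredoxin, lies on the minus strand at chr4:57943373-57956411 (ENSMUSG00000028367.5) and had 3 wild type peaks. A pair of them lay close together in an intron near the 3′ end of the gene. Of these, chr4:57944495-57944717 scored 5.58 and held neither core nor CA repeat. The other, chr4:57944842-57945021, scored 4.98 with a CA run of 31 bp, 2 cores and the AP-1 word TGACTCA or TGAGTCA. The third and strongest, chr4:57964589-57965275, scored 7.77 (rank 7223) at 8521 bp upstream of the start. At 687 bp it was the widest of the 20. Its 200 bp window was 90% masked and held 13 copies of CACACA or TGTGTG (43 over the whole peak) and 2 of CACGTG, the E-box, but no core.

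Txnrd1 encodes cytosolic thioredoxin reductase, a well-known target of the oxidant sensor NRF2, and lies on the plus strand at chr10:82833951-82897712 (ENSMUSG00000020250.10). Its 8 peaks were the most of the 6 genes by count, in the longest window. Per 10 kb of its 83.8 kb window it had 0.955 peaks, fewer than the 1.67 of Txnip, compared with a median of 0.400 (quartiles 0.173 and 0.660) over all protein-coding genes. The highest, chr10:82844935-82845222, scored 8.22 in an intron 11128 bp from the start, with the longest CA run of all members at 57 bp and 1 core. The closest to the start was chr10:82834629-82834875, 801 bp into the gene, with a score of 6.98, a CA run of 37 bp and no core. It was the only one of the 20 within 1 kb of the start of its own gene. Slightly further in, chr10:82835741-82835930 lay at 1885 bp with a score of 6.51, a CA run of 56 bp and 1 core. The peak whose sequence is shown above, chr10:82862750-82862998, scored 7.64 at 28923 bp. It held 5 cores spread through TG stretches that were broken several times, the longest being 22 bp.

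The remaining 4 peaks of Txnrd1 were weaker. Upstream, chr10:82827456-82827705 scored 5.98 at 6370 bp from the start, with 2 cores and a CA repeat. In introns, chr10:82849381-82849561 scored 3.90 and chr10:82887762-82887968 scored 5.98, and neither was a CA repeat or held the core, although the second held CACGTG. They were 100% and 96% masked. Past the end of the gene, chr10:82907056-82907264 scored 5.65 with a CA run of 33 bp and no core. Offered only the starts of protein-coding genes, 3 of the 8 peaks were nearest to Eid3 rather than Txnrd1.

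Txnrd2, which encodes the mitochondrial reductase, lies at chr16:18426384-18479073 (plus strand, ENSMUSG00000075704.16). It had 1 wild type peak in 72.7 kb, or 0.138 per 10 kb, below the lower quartile of protein-coding genes. The peak, chr16:18434113-18434397, scored 4.20 in an intron 7871 bp from the start, was 100% masked without a CA repeat, and held 2 cores. Thus the mitochondrial pair held both the highest best score of the 6 genes, at Txn2, and the lowest, at Txnrd2.

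Txnrd3 lies on the plus strand at chr6:89643988-89675529 (ENSMUSG00000000811.13) and had 3 wild type peaks, with scores of 4.98, 5.65 and 5.32. The first, chr6:89651794-89651987, was in an intron 7903 bp from the start. It was the least masked of the 20 at 30%, with a CA run of 39 bp, the AP-1 word and no core. The second, chr6:89670103-89670326, was in an intron at 26227 bp, 100% masked, with a CA repeat and 1 core. The third, chr6:89685391-89685629, was 9861 bp beyond the gene end, was 100% masked and held neither.

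Few peaks lay close to the limit of 10 kb. Just inside it were that Txnrd3 peak and the last Txnrd1 peak, 9343 bp past the gene end. Just outside was a peak upstream of Txn1, chr4:57966412-57966862 with a score of 4.34, that begins at the first base beyond the window and would join the members if positions in the list were shifted by 1 bp. The next outside were at 10692 bp from Txnip (score 4.98) and 11019 bp from Txn2 (score 5.89).

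By position, 14 of the 20 peaks were in introns, 12 of them in an intron of the member gene, and 6 were intergenic. Introns held 41.2% of all wild type peaks and 74% of the 58845 within 10 kb of a protein-coding gene, and intergenic sequence 54.9% and 19.4%, so the members were close to the latter set. None fell in an exon (0.962% of all) or at a promoter (2.95%), taken as 1 kb upstream to 100 bp downstream of any transcript start. Distances of the midpoint from the gene start ran from 8521 bp upstream to 73209 bp downstream. For 14 of the 20, the nearest protein-coding start was that of the member itself, a count that depends on the rule, which kept only peaks near these genes.

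To see what the members share, letters were counted on both strands of the 200 bp windows. The core GCGTG was present in 11 of the 20 member windows (55%, 95% Wilson interval 34.2 to 74.2), compared with 17.7% of the 123366 wild type windows on assembled chromosomes and with 2 of 39 windows of equal length 2 kb to either side of the members. Without the best peaks of Txnip and Txn2 it was present in 9 of 18. At least 2 copies were held by 6 of the 20, against 5.36% of all windows. CA repeats, meaning windows in which CACACA or TGTGTG occurred 3 or more times without overlap, made up 13 of the 20, close to the 57.3% of all windows, and 1 of the 39 flanking windows. The core was present in 9 of those 13 (21.2% of all CA repeat windows held it) and in 2 of the 7 members outside CA repeats (12.9% of all such windows). Peaks at a gene share a locus, and the intervals cover counting error only, so these shares describe the list and were not tested.

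The longer word TNGCGTG was present in 0 of the 20 windows, which allows a share of up to 15%, so the share of 2.84% over all wild type windows could not have been told apart from 0 with so few members. By repeat content, it was in 0 of the 13 member CA repeats (1.65% of all) and in 0 of the 7 other members (4.44% of all). It was also absent from the 39 flanking windows. Of the 22 copies of the core in member windows, 15 read GTGCGTG with the 2 letters before them (68.2%, against 50.8% of the 38293 copies in all windows). That is how the core reads inside a TG repeat, where the letter at the first position is G and not the T of the longer word. A T stood at that position in 0 of the 22 copies and in 9.31% of all copies. Copies within the same repeat are not independent. The windows shown above held 5 (Txnrd1), 4 (Txn2) and 2 (Txnip) of the 22.

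Other words were rare among the members. The AP-1 word was found in 2 of the 20 windows (1.28% of all), the TEAD word GGAATG in 2 (7.24%), CACGTG in 2 (2.25%), CACGAG, which makes up the glucose-responsive element of Txnip, in 1 (2.73%) and TGACNNNGC, the NRF2 word, in 0 (2.61%). Soft-masked letters filled 50% or more of the window in 16 of the 20, against 86% of all windows and 6 of the 39 flanks. The 4 that were less masked included the best peaks of Txn2 and Txnip. The median longest CA or TG run was 21 bp in members and 19 bp in all windows.

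**Figure D3:**
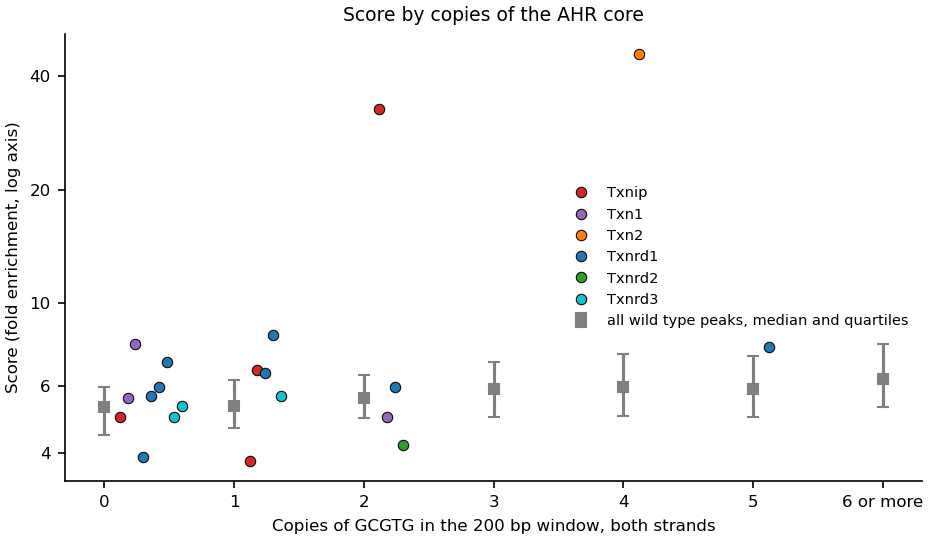
Peak score (y axis, fold enrichment, log axis) is plotted against the number of GCGTG copies in the 200 bp window (x axis), with grey squares and bars for the median and quartiles of all wild type peaks and coloured points, shifted sideways for legibility, for the 20 members. The Txn2 peak with 4 copies and the Txnip peak with 2 lie far above the quartiles of peaks with equal copies, while the Txnrd1 peak with 5 copies, at 7.64, lies just above them.

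The plot of score by core copies sets the members beside all wild type windows with equally many copies. Over all wild type windows the median score went from 5.29 without a core to 6.26 with at least 6, and the share in the top 1% of scores from 0.782% to 8.63%. At the 2 copies of the Txnip site 2.17% of all windows were in the top 1%, and at the 4 of the Txn2 site 4.67%. Among the 4 members with 2 copies, the Txnip site, chosen for its score, had 32.8. The others had 5.98 at Txnrd1, 4.98 at Txn1 and 4.20 at Txnrd2, beside quartiles of 4.93 and 6.45 over all windows with 2 copies. With 5 copies, the most of any member, the Txnrd1 peak scored 7.64.

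The same words were then counted in the promoters of the 6 genes. RefSeq (GRCm38.p6) gives 8 promoters for them, from 250 bases before to 50 after a start, of which Txnrd1 has 3. No wild type peak overlapped any of the 8, and 0.962% of all 32851 promoters were overlapped by one, so nothing particular to these genes can be read from it. The nearest lay 628 bp from the first Txnrd1 promoter and 2181 bp from that of Txnip. The core was held by 6 of the 8 (32.4% of all promoters), and TNGCGTG stood once, in the Txnip promoter (5.07% of all promoters), 53 to 47 bases before the start. That promoter also held 2 copies of CACGAG, a word in 6.47% of all promoters, at 85 to 80 and 74 to 69 bases before the start. It is shown because the word AHR and ARNT prefer and the words of the glucose response stand side by side in it while the strong peak lies elsewhere. The stretch below runs from 120 to 31 bases before the start (chr3:96557837-96557926, plus strand, RefSeq GRCm38.p6), with both words in capitals. A match of letters is not a bound site, and a peak absent from a list may be weaker than its threshold.
Txnip promoter: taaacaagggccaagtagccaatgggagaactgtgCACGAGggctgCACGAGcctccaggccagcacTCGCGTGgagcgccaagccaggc

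The NRF2 word TGACNNNGC stood in 1 of the 8 promoters, the second of Txnrd1 (12.4% of all promoters), at 92 to 84 bases before the start. CACGTG was found in 0 of the 8 (7.15% of all promoters), the AP-1 word in 0 (5.2%) and the TEAD word in 2, those of Txn2 and Txnrd2 (14.7%). With 8 promoters, such counts show nothing particular to these genes.

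AHR KO organoids served as the control for signal that does not need AHR. No AHR KO peak lay within 10 kb of any of the 6 genes, which was also true of most protein-coding genes, since 4.47% had one. Of the 20 member peaks, 0 overlapped a peak of the AHR KO list, compared with 1.46% over all wild type peaks, a share too low to show in 20 peaks. The nearest AHR KO peaks were between 192 kb (Txnrd1) and 1486 kb (Txnrd2) from the genes. The lists differ in depth, with a genome-wide background of 2.01 fragments for wild type and 0.287 for the other genotype, the latter read from 17.2% of its peaks. The part of depth in the absence of AHR KO peaks at these genes was not tested. The median score of the AHR KO list was 6.84, which 6 of the 20 members (13.2% of all wild type peaks) reached. Scores depend on depth, and an equal score stands for a different pileup in each list. This count therefore does not rank the members against AHR KO signal. With 1 AHR KO library the absence of peaks has no replicate check.

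The wider pathway was examined through 53 further genes, grouped by role. A wild type peak within 10 kb was found at 44 of the 53 (78.3% of all protein-coding genes), and the median of their best scores was 5.999, against 6.31 over all protein-coding genes with a peak. Over the members without Txnip and Txn2, whose scores chose the set, it was 6.71. Those 4 genes had a median window of 62.1 kb, against 37.4 kb over all protein-coding genes, and a longer window can hold more peaks. Over the 53 pathway genes the median number of peaks per 10 kb was 0.441. A best peak in the top 10% of scores was found at 16 of the 53, compared with 23% of protein-coding genes. In the top 1% there were 2, compared with 3.72%. One was Arrdc1, an alpha-arrestin relative of Txnip, whose best peak scored 29.01 (rank 21). That peak lay 6336 bp upstream of the start and was a CA repeat with 4 cores, 91.5% masked. The other was Gpx1, a glutathione peroxidase, with 11.2 at a CA repeat without a core. The genes without a wild type peak were Prdx4 and Prdx5 (peroxiredoxins), Msrb1 (a methionine sulphoxide reductase), Txndc12, Gclm and Gss (glutathione synthesis), Arrdc3, Arrdc5 and Mlx, the partner of the glucose-sensing regulators of Txnip.

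**Figure D4:**
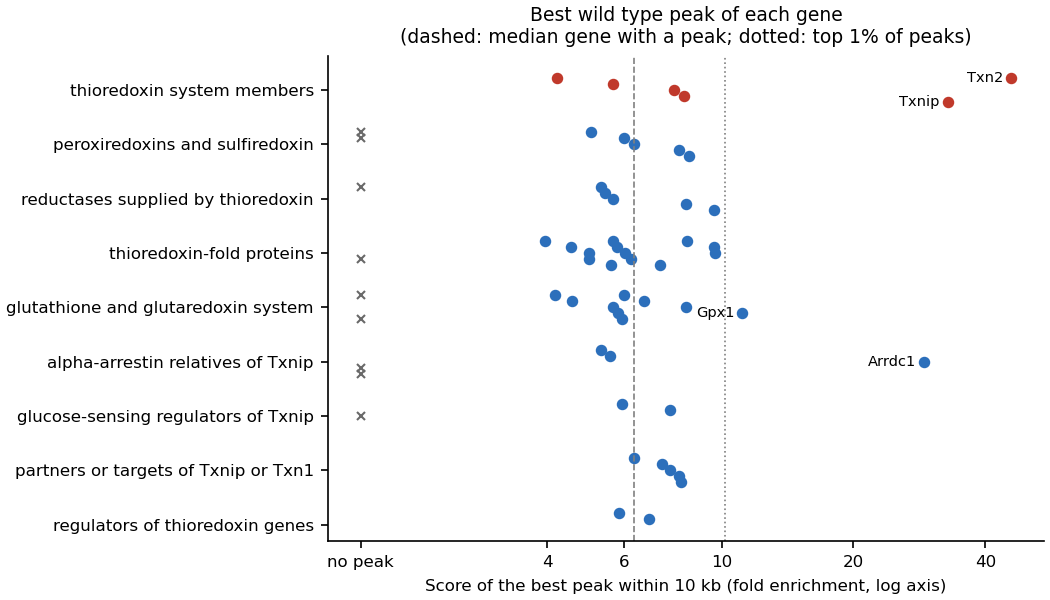
The score of the best wild type peak within 10 kb (x axis, fold enrichment, log axis) is shown for each gene by role (rows), in red for the 6 members and blue for the 53 pathway genes, with crosses for genes without a peak. Txn2, Txnip and Arrdc1, at 45.9, 32.8 and 29.01, lie far to the right of the dotted top 1% line at 10.2, which Gpx1 passes at 11.2.

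By role, peaks were found at 5 of the 7 peroxiredoxin and sulfiredoxin genes, 5 of the 6 reductases that thioredoxin supplies, 13 of the 14 other thioredoxin-fold proteins and 9 of the 11 genes of the glutathione and glutaredoxin system. They were found at 3 of the 5 alpha-arrestins, at Mlxip and Mlxipl but not Mlx, at all 5 partners or targets of Txnip or Txn1, and at both Nfe2l2, which encodes NRF2, and Keap1, its inhibitor. Since 78.3% of all protein-coding genes had a peak, nothing particular to a role is read from these counts. The 5 partners or targets had a median window of 113 kb, against 37.4 kb over all protein-coding genes. Their median was 0.441 peaks per 10 kb, against 0.400. Named after their values were seen, Slc2a1, the glucose transporter that TXNIP removes from the membrane, had a best score of 7.31, and Nlrp3, the inflammasome sensor that TXNIP is known to bind, had 6.31. The median best score over all protein-coding genes with a peak was also 6.31. These peaks lay 22409 bp (Slc2a1) and 34771 bp (Nlrp3) from the gene start, and neither held a core. The best peak was a CA repeat at 30 of the 44 genes (70.6% of the best peaks of all 17178 protein-coding genes with a peak) and held the core at 14 (24.3%). It held TNGCGTG at 3 (2.58%), which were Txnl4a, Pdia6 and Gpx2, named after their values were seen. An AHR KO peak was present at 1 of the 53 (4.47% of all protein-coding genes), Msra, a methionine sulphoxide reductase gene with a window of 353 kb, also named after its value was seen. Of the 44 best peaks 0 overlapped an AHR KO peak (3.7% of those of all genes).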

How the data were processed

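Per the labels and the study's methods, single-end reads were aligned by the authors to mm10 (GRCm38) with BWA 0.7.15, duplicates were marked with Picard 2.1.1, and peaks were called with MACS2 2.1.1 in standard settings against input. The deposited values are 1 peak list for wild type and 1 for AHR KO, with a score that from its values is a fold enrichment ratio, (pileup + 1)/(background + 1). Read depth per library was not analysed here, and the handling of reads that map to several places is not given in the sources used here, which bears on peaks in repeats. Starts were taken as counted from 0 and printed with 1 added.

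Members were found by overlap of at least 1 bp with GENCODE M21 genes extended by 10 kb. Sequence came from GRCm38, so 286 wild type peaks outside chromosomes 1 to 19, X and Y were left out of window counts. The background was read from the step of which more scores were whole multiples (within 2e-05) than of any other step tried. On it lay 63809 wild type peaks (51.6%), 12 of them members, and 333 AHR KO peaks (17.2%), so the AHR KO background rests on a minority of its peaks. Scripts (Python 3.11.15, pandas 2.3.3, scipy 1.17.1) were checked on made data with planted steps, overlaps and words. Words overlap in that GCGTG is the end of TNGCGTG. Peaks of equal score share a rank. Members and the pathway list were chosen with earlier results of these data known. Named were all members, pathway genes with a best peak in the top 1% of scores or with none, and the neighbours in rank of the best Txnip and Txn2 peaks. Pathway genes named outside this rule were chosen after their values were seen. No test was run, since neither list has a value per culture.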

Additional observations from a re-analysis of the deposited data

How the results depend on the processing

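Of 31 values under an alternative setting, 25 were the same, within 1.5 times the value reported, and 6 moved. The 20 wild type peaks became 12 with the gene body only, 13 with 2 kb and 44 with 50 kb on either side, and 5 in the top 10% of scores, each by construction of a narrower, wider or stricter choice. The 44 pathway genes with a peak became 16 in the top 10% of scores. Windows with TNGCGTG went from 0 to 11 with the core GCGTG alone, and stayed at 0 over the whole peak, 100 bp and 400 bp. Overlap with AHR KO peaks stayed at 0 in both of its alternatives. With Gm15441 and other non-coding genes also offered, 10 of the 20 peaks in place of 14 were nearest to the member itself. The cultures could not be left out in turn, as peaks of the wild type list carry no culture name. No paired analysis was possible because values are given for all cultures together. With 20 members, shares have wide intervals, and 0 of 20 allows up to 15%.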
